A study of Mus musculus with 6 samples.

Results

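The genes described here are 44 regulators of the cell division cycle. They are the cyclins and cyclin-dependent kinases (CDKs), the E2F and retinoblastoma (RB) families, the mitotic kinases, the spindle checkpoint, and the centromere, kinesin and ubiquitin ligase genes that carry cells through mitosis. The members were named one by one by symbol and were read in 6 lines of mouse induced pluripotent stem (iPS) cells. Each gene was represented by the probeset that the platform annotation pairs with its symbol alone, the brightest over the 6 arrays where there were several. This gave values for 43 of the 44 genes, of 19938 genes in the whole table, and Ccnb1 was not analysed here. Of the measured members, 15 act in G1 and at entry into S phase and 28 in G2 and mitosis, and the second set is called mitotic below.

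The lines came from OG2 mouse embryonic fibroblasts, which carry green fluorescent protein under the Oct4 promoter, and all 6 received retroviruses for Sox2, Klf4, Oct4 and c-Myc. The 3 control clones, numbered 2, 3 and 4, also received a short hairpin RNA (shRNA) against luciferase, and the 3 shECAD clones, numbered 4, 8 and 9, one against E-cadherin, the adhesion protein encoded by Cdh1. Feeders were introduced on day 6 and single colonies were taken on day 14. The lines were then grown on feeders, and at harvest the feeder cells were removed from the trypsinised cells before RNA extraction. Each line is 1 clone read on 1 array, which makes n = 3 in each group, a number that sets the limit of precision. No separate infections are named, and p-values therefore measure the spread between these clones only. Expression values are log2 probeset values, and a fold change is the shECAD mean minus the control mean on that scale. A gene was called at an adjusted p below 0.05 in limma, with the Benjamini-Hochberg adjustment over all 19938 genes.

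Cell division is driven by CDKs, which act only when bound to a cyclin. In most cells D-type cyclins with Cdk4 and Cdk6 begin the phosphorylation of the RB proteins in G1, E-type cyclins with Cdk2 complete it, and the E2F factors that are then released switch on the genes of DNA replication. Cyclins A and B with Cdk1 then drive mitosis, and the spindle checkpoint holds the cell there until every chromosome is attached. Mouse pluripotent cells are known for a short G1 phase, low D-type cyclin activity and high Cdk2 activity.

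Cdh1, the target of the shRNA, read 9.18, 9.60 and 9.07 in the control clones and 6.75, 6.92 and 7.81 in the shECAD clones, and its fold change was -2.13 ± 0.27 (SE), limma adjusted p = 0.00683. The 12 iPS cell markers checked, Pou5f1 and Nanog among them, had mean log2 levels of 9.87, 9.85 and 10.04 in the control clones and 9.78, 9.79 and 9.31 in the shECAD clones, with 0 of 12 called by limma (4 at an unadjusted p below 0.05, and 2 called lower with an intensity trend and a robust prior). The marker means lay lower in every shECAD clone than in every control clone, and the median fold change of the 12 was -0.25. Of these markers 9 had a fold change below 0 and 3 lay lower with no overlap, against 46.3% and 12.5% of all genes. Their largest fold changes were -0.81 for Esrrb, -0.70 for Dppa4 and -0.63 for Fbxo15. Fibroblast and feeder cell markers differed between the groups. Of 23 measured, 15 were called higher and 0 lower in the shECAD clones, the groups did not overlap in 19, and none lay below the 25th percentile of its array in all 6 clones. Over all genes 1.90% were called higher and 1.23% lower, and 11.1% lay higher with no overlap. Leaving out control clone 3 or 4, or shECAD clone 4, lowered the count called higher to 7, while leaving out shECAD clone 8 gave 4 and shECAD clone 9 gave 10. The mean log2 level of this list was 6.62, 6.20 and 5.61 in the control group and 7.26, 7.55 and 7.26 in the shECAD group, with clones in the same order. The largest fold changes were those of Lox (2.35), Postn (2.26), Ccdc80 (2.05), Col1a1 (1.97) and Cdh11 (1.94). Limma called 0 of 14 endoderm, trophoblast, neural and blood markers (4 at an unadjusted p below 0.05), with -0.72 for Pecam1, 0.59 for Gata6 and 0.57 for Krt7 farthest from 0. Whether RNA of fibroblasts or feeder cells has a part in the values below was not tested. In bulk RNA a smaller share of dividing cells and less mRNA per cell cannot be told apart. The array of shECAD clone 9 had the smallest SD of the 6 (2.11, against 2.17 to 2.26). Values without it, or without another clone, are given for members not called that had a fold change beyond 0.15 either way and moved by over 1.5 times.

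Among the 43 measured members, Ccnd2, the gene of cyclin D2, rose and Cdk2, the gene of the kinase that works with cyclins E and A, fell in the shECAD clones. These were the only 2 called (4.65%), against 623 of all genes (3.12%), of which 378 were higher (1.90%) and 245 lower (1.23%). With every array set to the same median, the genes called across the table numbered 303 higher and 377 lower. The other 41 members did not pass the test, and 14 of the 43 had an unadjusted p below 0.05, against 18.0% of all genes. Most differences were small, with 37 of the 43 fold changes between -0.5 and 0.5.

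The values of the members leaned to one side. The fold change was below 0 for 33 of the 43 members and for 46.3% of all genes. In 23 members (53.5%) every shECAD clone read lower than every control clone, as did 12.5% of all genes, and in 1 member every shECAD clone read higher, as did 11.1% of all genes; in either direction the groups did not overlap in 24 members (55.8%) and in 23.6% of all genes. Brighter genes leaned the same way to a lesser degree. Among the 9969 genes at or above the median level, 21.5% lay lower with no overlap and 61.1% had a fold change below 0. After quantile normalization the count of members that lay lower with no overlap was 17 (39.5%), against 11.6% of all genes. The mitotic set had a median fold change of -0.33, with 25 of 28 values below 0 and 17 members (60.7%) lower with no overlap. The G1 set had a median of -0.027, with 8 of 15 values below 0 and 6 members (40.0%) lower with no overlap. The median over all genes was 0.025. Among the genes at or above the median level, which hold 42 of the 43 members, it was -0.092. These medians describe the members and were not tested against each other.

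**Figure D1:**
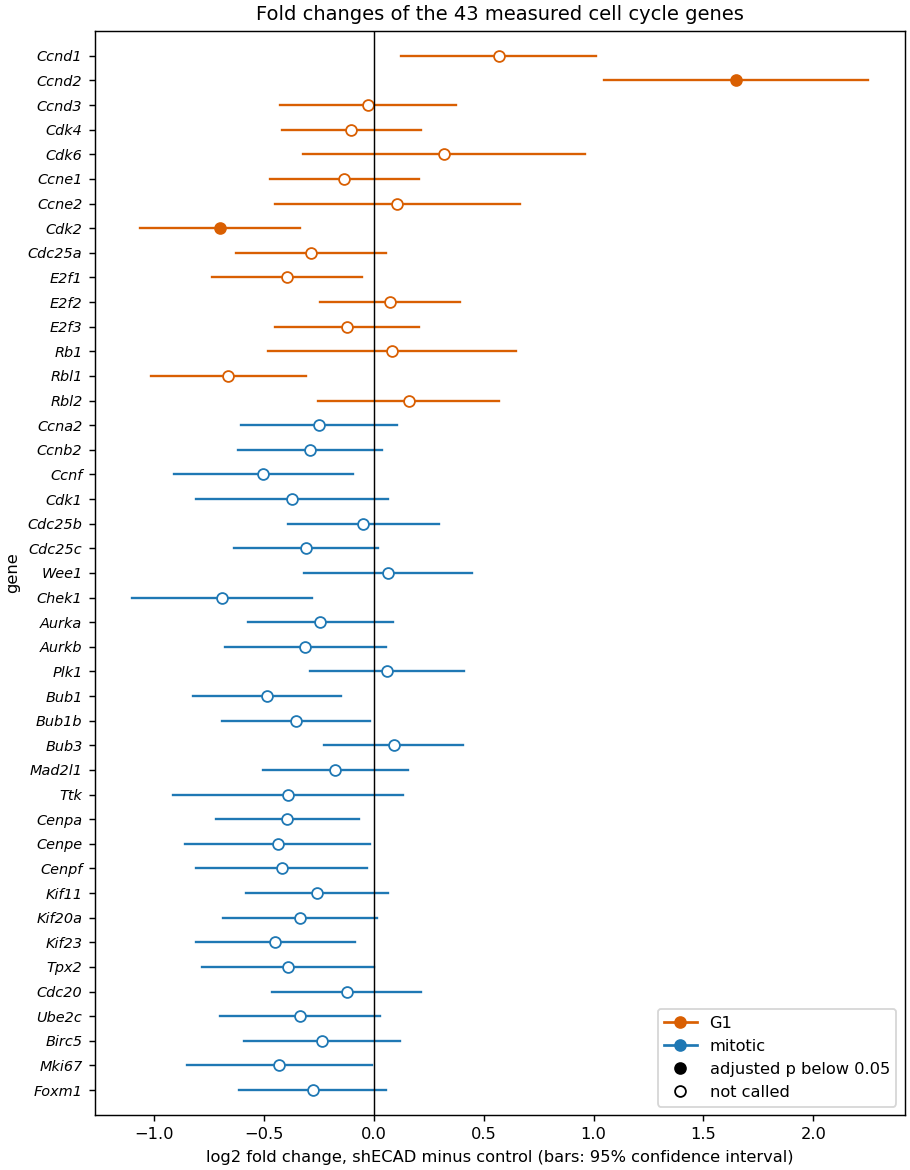
Log2 fold changes of the 43 measured members (shECAD minus control, n = 3 clones each) with 95% confidence intervals from limma, G1 members in orange and mitotic members in blue. Filled points are the 2 called genes, Ccnd2 at 1.65 and Cdk2 at -0.70; 25 of the 28 mitotic points lie below 0.

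D-type cyclins, the sensors of growth signals in G1, held the member with the largest change. Ccnd2 read 8.43, 7.61 and 7.19 in clones 2, 3 and 4 of the control group and 9.51, 9.46 and 9.20 in clones 4, 8 and 9 of the shECAD group. All shECAD clones lay above all control clones, and the control clones were spread over 1.24 units while the shECAD clones lay within 0.31. The group means were 7.74 ± 0.63 and 9.39 ± 0.17 (SD), a 3.13-fold rise with a 95% confidence interval from 2.07-fold to 4.75-fold (1.65 ± 0.27 (SE) on the log2 scale, limma adjusted p = 0.0148). Relabelling the clones in all 20 ways gave p = 0.1 (exact permutation test, two-sided), which is the smallest p possible with 3 against 3. The call ended without shECAD clone 4 (limma adjusted p = 0.0516) and without shECAD clone 8 (0.0616). Control clone 2, which had the highest Ccnd2 value of its group, also had the highest mean of the fibroblast and feeder list in that group, and control clone 4 had the lowest of both. In the shECAD group the highest values fell in different clones, with Ccnd2 highest in clone 4 (9.51) and the marker average in clone 8 (7.55). There clone 9 had the lowest of both, although its marker average was almost that of clone 4 (7.26 in each). The marker averages did not overlap between the groups, and their part in the Ccnd2 difference was not tested.

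Ccnd1, the gene of cyclin D1, read 9.70, 9.08 and 9.01 in the control clones and 9.94, 9.87 and 9.68 in the shECAD clones. Control clone 2 overlapped with the shECAD clones, and the fold change of 0.57 ± 0.20 (SE) did not pass the test (limma adjusted p = 0.164). Without control clone 2 it was 0.79, with a limma adjusted p of 0.0489, and without control clone 4 it was 0.44, with 0.415. Ccnd3, the gene of cyclin D3, had a fold change of -0.027 ± 0.18 (SE), with a 95% confidence interval from -0.43 to 0.37. The 3 D-type cyclin genes therefore gave unlike values, with 1 called, 1 above 0 and not called, and 1 near 0.

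The kinases that pair with D-type cyclins were not called. Cdk4 read 10.14, 10.08 and 9.98 in the control clones and 9.98, 9.96 and 9.96 in the shECAD clones, so that the groups were apart by a narrow margin (fold change -0.10, 95% confidence interval -0.42 to 0.21). Cdk6 varied widely, at 8.26, 8.01 and 7.34 in the control clones and 7.71, 8.10 and 8.75 in the shECAD clones, and its fold change was 0.32 ± 0.29 (SE), or 0.036 without shECAD clone 9 and 0.055 without control clone 4. Without control clone 2 or shECAD clone 4 it was 0.51 and 0.56. The spread of Cdk6 within each group was larger than the difference between the groups.

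**Figure D2:**
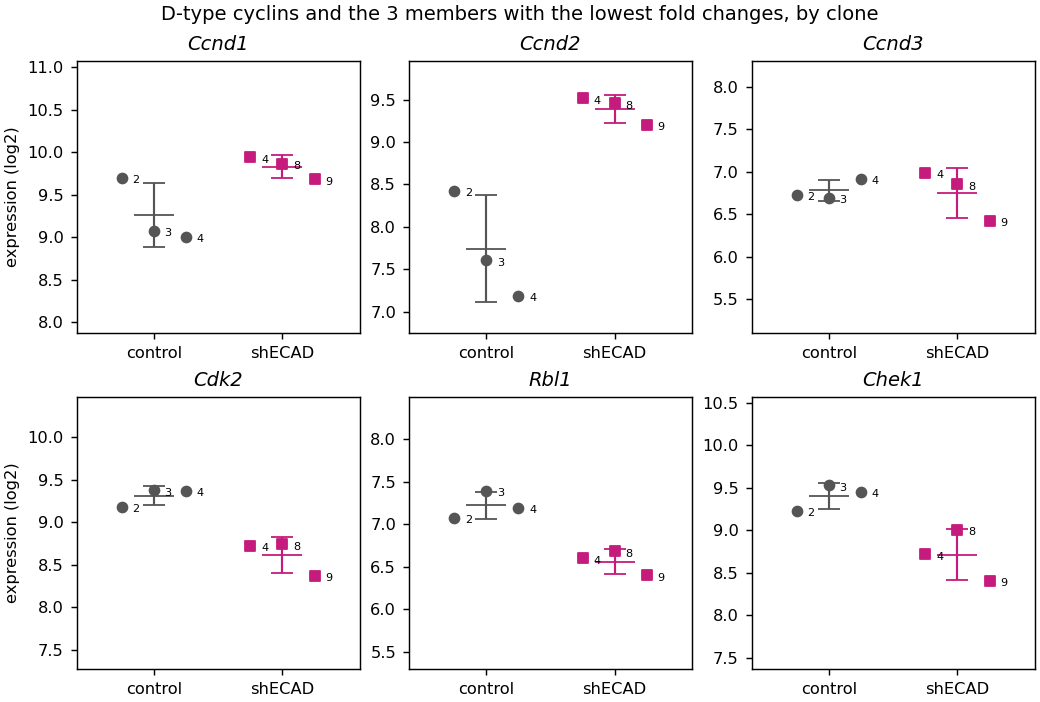
Log2 expression of the 3 D-type cyclin genes and of Cdk2, Rbl1 and Chek1, the 3 members with the lowest fold changes, with 1 point per clone (numbered), the group mean and its SD (n = 3). Every panel spans the same number of log2 units; the groups do not overlap in Ccnd2, Cdk2, Rbl1 and Chek1 and overlap in Ccnd1 and Ccnd3.

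Cdk2 lay lower in the shECAD clones, with no overlap. It read 9.18, 9.38 and 9.37 in clones 2, 3 and 4 of the control group and 8.72, 8.74 and 8.37 in clones 4, 8 and 9 of the shECAD group, with group means of 9.31 ± 0.11 and 8.61 ± 0.21 (SD). The shECAD level was 61.6% of the control level on the linear scale, with a 95% confidence interval from 47.9% to 79.2% (log2 fold change -0.70 ± 0.16 (SE), limma adjusted p = 0.0491, exact permutation p = 0.1, two-sided). This call lay close to the threshold. It ended after quantile normalization (limma adjusted p = 0.0537) and without any 1 of the 6 clones, with adjusted p-values up to 0.169 (without control clone 4). The partners of Cdk2 were not called. Ccne1, the gene of cyclin E1, read 9.78, 9.77 and 9.75 in the control clones and 9.74, 9.73 and 9.43 in the shECAD clones, a fold change of -0.13 that was -0.033 without shECAD clone 9. Ccne2, the gene of cyclin E2, ranged from 5.43 in control clone 2 to 6.34 in shECAD clone 4 (fold change 0.11 ± 0.25 (SE)). Cdc25a, the gene of the phosphatase that activates Cdk2, read 9.15, 9.36 and 9.24 in the control clones and 9.09, 9.02 and 8.80 in the shECAD clones (fold change -0.28 ± 0.15 (SE), limma adjusted p = 0.368).

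Of the RB family, Rbl1 stood apart between the groups and Rb1 and Rbl2 did not. Rbl1, which encodes p107, a repressor that is itself switched on by E2F, read 7.08, 7.40 and 7.19 in clones 2, 3 and 4 of the control group and 6.60, 6.68 and 6.40 in clones 4, 8 and 9 of the shECAD group. The groups did not overlap, and the shECAD level was 63.2% of control (95% confidence interval 49.4% to 80.8%), with a fold change of -0.66 ± 0.16 (SE) and a limma adjusted p of 0.0540, just outside the threshold. It was inside after median centring (0.0438), among brighter genes alone (0.0310), with an intensity trend and a robust prior (0.0384) and with array quality weights (0.0374). Without any 1 of the 6 clones Rbl1 was outside, with limma adjusted p-values up to 0.163 (without control clone 3). Rb1, the gene of the retinoblastoma protein, had a narrow range of 0.12 units in the control clones and a wide one of 1.15 in the shECAD clones, where it read 6.77, 6.48 and 5.62. Its fold change was 0.083 ± 0.26 (SE), and 0.42 without shECAD clone 9. Rbl2, which encodes p130, the RB protein of resting cells, had a fold change of 0.16 ± 0.19 (SE), which leaving out control clone 3, control clone 4 or shECAD clone 8 moved to 0.32, 0.018 and 0.068.

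The activating E2F genes were not called. E2f1 read 6.68, 6.55 and 6.77 in the control clones and 6.43, 6.18 and 6.20 in the shECAD clones with no overlap (fold change -0.39 ± 0.15 (SE), limma adjusted p = 0.209). E2f2 and, at its brighter probeset, E2f3 overlapped between the groups, with fold changes of 0.073 and -0.12 and 95% confidence intervals from -0.25 to 0.39 and from -0.45 to 0.21. The probesets of E2f3 disagreed. Its other probeset read 7.11, 7.37 and 7.22 in the control clones and 6.54, 6.94 and 6.55 in the shECAD clones, with no overlap and a difference of -0.56, and the mean of both gave a fold change of -0.34 (limma adjusted p = 0.282).

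Promoter sequences are shown because many members lay lower together and because 3 short elements are known in promoters of cell cycle genes. The cell cycle genes homology region (CHR, searched as TTTGAA) is bound by the MuvB complexes that repress and activate mitotic genes, the CCAAT box is bound by NF-Y and often lies near a CHR, and E2F sites (searched as TTCGCGC, as TTGGCGC and as TTCCCGC) mark genes of the G1 to S transition. Each was searched on both strands in the 250 bases before to 50 after the start site, in 32851 RefSeq promoters of 27025 genes (build GRCm38.p6). Promoters of 33 of the 44 listed genes were in that table. In those promoters 1 pair of matches to different elements overlapped, an E2F form and a CCAAT box of Ccnb1, and matches to one element overlapped each other in Cdc25a and Ube2c. Positions are counted from the start site, which is 0. A match describes letters only and is not evidence of binding.

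An E2F form was found in 5 of 11 G1 genes (45.5%) and in 4 of 22 mitotic genes (18.2%), against 9.20% of all genes in the table. The 2 G1 members with the lowest fold changes, Cdk2 and Rbl1, both held one, as did Cdc25a, E2f2 and E2f3. Of the measured members in the table, an E2F form was found in 5 of the 19 that lay lower with no overlap (26.3%) and in 3 of the 13 that overlapped (23.1%). Their promoters follow from 150 bases before the start site to 49 after it, 5′ to 3′ on the gene's strand, from chr10:128705002-128705201 (minus strand) and chr2:157204485-157204684 (minus strand), build GRCm38.p6 of RefSeq. Capitals mark E2F forms and CCAAT boxes on either strand, and on the reverse strand TTCCCGC appears as GCGGGAA.
Cdk2 promoter: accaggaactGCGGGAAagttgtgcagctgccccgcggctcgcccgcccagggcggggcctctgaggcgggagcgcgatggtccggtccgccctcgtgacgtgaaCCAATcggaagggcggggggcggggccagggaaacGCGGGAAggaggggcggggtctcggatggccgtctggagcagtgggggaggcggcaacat
Rbl1 promoter: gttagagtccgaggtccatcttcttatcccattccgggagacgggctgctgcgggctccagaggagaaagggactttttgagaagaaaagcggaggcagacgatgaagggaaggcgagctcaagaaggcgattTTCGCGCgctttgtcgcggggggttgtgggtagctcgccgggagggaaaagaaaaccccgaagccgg
Cdk2 held E2F forms at -140 and -10, both on the reverse strand, with a CCAAT box at -45 between them. Rbl1 held 1 E2F form at -17.

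In the mitotic set the shift was broad and shallow. No member was called by limma, 9 of 28 had an unadjusted p below 0.05, and with an intensity trend and a robust prior 2 were called, Chek1 (limma adjusted p = 0.0304) and Bub1 (0.0419). Every shECAD clone read lower than every control clone in 17 of the 28 (60.7%), and none had every shECAD clone above. The mean log2 level of the set was 8.58, 8.71 and 8.63 in the control group and 8.35, 8.44 and 8.24 in the shECAD group. Control clone 3 held the highest value of the 6 clones in 16 of the 28 genes and shECAD clone 9 the lowest in 15, whereas over all genes these clones held the highest and the lowest value in 20.3% and 21.7%. The array of control clone 3 had the largest SD of the 6 (2.26) and that of shECAD clone 9 the smallest (2.11). All genes include dimmer ones than the mitotic set, and the part of array spread in these counts was not tested. Without shECAD clone 9 the median fold change of the set was -0.26 instead of -0.33, with 25 of 28 values still below 0. After quantile normalization the median was -0.22, also with 25 of 28 below 0.

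**Figure D3:**
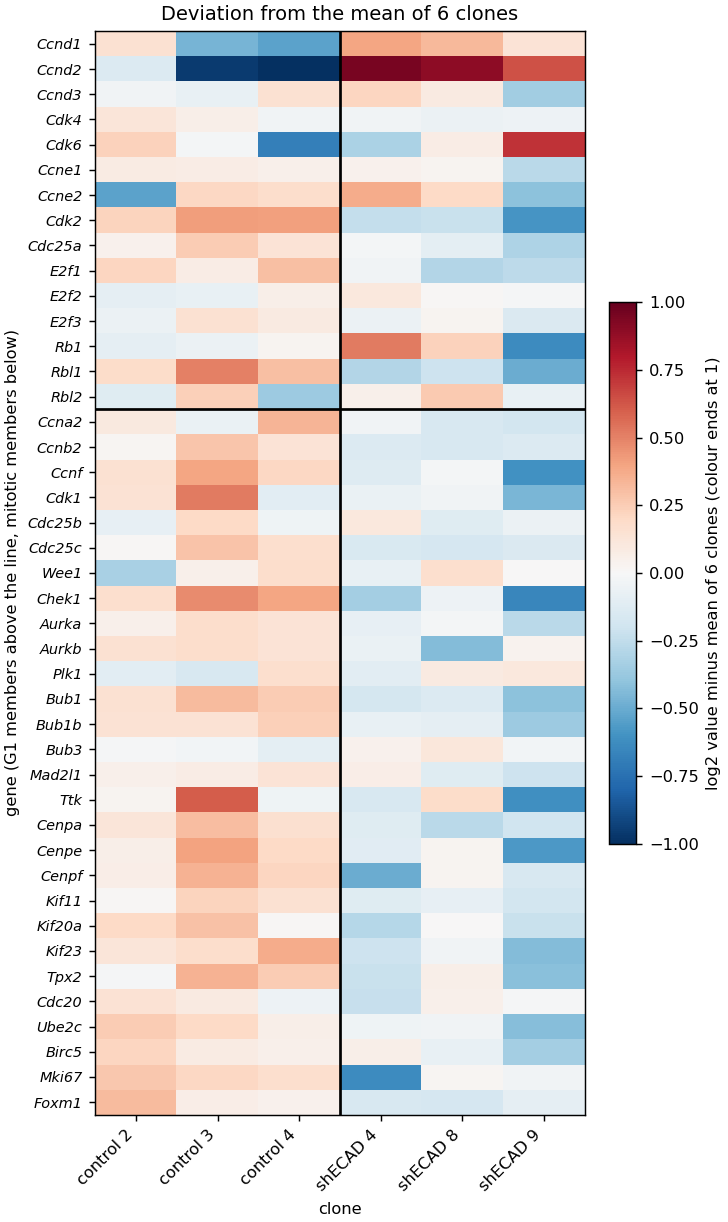
Log2 value of each measured member in each clone minus the gene's mean over the 6 clones (red higher, blue lower; the colour scale ends at 1 unit). Below the horizontal line most mitotic genes are red in the 3 control clones and blue in the shECAD clones, with shECAD clone 9 the lowest in 15 of 28; Ccnd2 shows the opposite order.

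**Figure D4:**
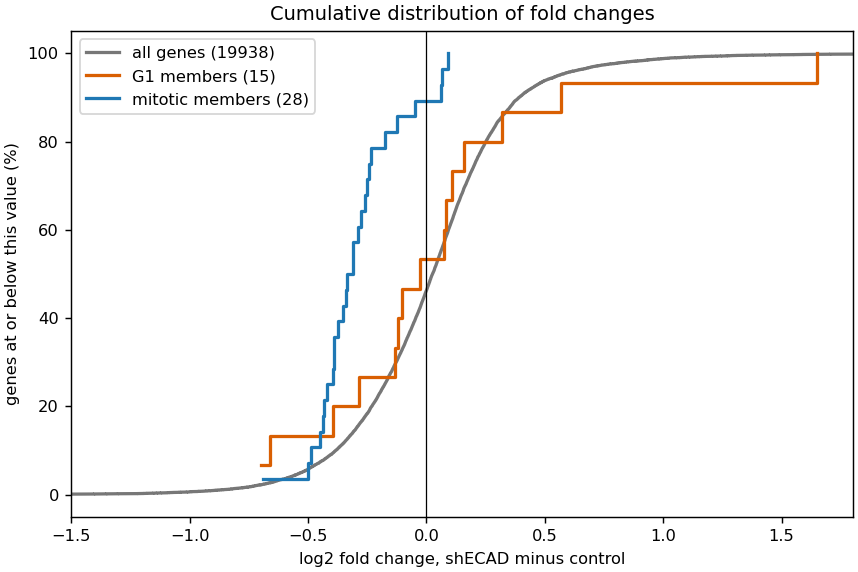
Cumulative share of genes by log2 fold change (shECAD minus control) for all 19938 genes in grey, the 15 measured G1 members in orange and the 28 measured mitotic members in blue. The mitotic curve lies to the left of the others over most of its range, with medians of -0.33, -0.027 and 0.025 for mitotic members, G1 members and all genes. The median of genes at or above the median level, not drawn, was -0.092.

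The measured genes of A- and B-type cyclins, Ccnf and Cdk1 had fold changes from -0.50 to -0.25. Ccnf, the gene of cyclin F, a subunit of a ubiquitin ligase, was the lowest of them, at 8.93, 9.17 and 8.98 in the control clones and 8.65, 8.75 and 8.17 in the shECAD clones (fold change -0.50 ± 0.18 (SE), limma adjusted p = 0.181), and -0.32 without shECAD clone 9. Ccnb2, the gene of cyclin B2, read 9.17, 9.43 and 9.29 in the control clones and 9.02, 8.99 and 9.01 in the shECAD clones, so that the shECAD clones lay within 0.022 units and below all control clones. Ccna2, which encodes cyclin A2, and Cdk1, its mitotic kinase, overlapped between the groups, with fold changes of -0.25 ± 0.16 (SE) and -0.37 ± 0.20 (SE). Leaving out control clone 3 or shECAD clone 9 brought Cdk1 to -0.21 or -0.24, and Ccna2 was -0.14 without control clone 4.

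The genes that time entry into mitosis differed among themselves. Chek1 encodes the checkpoint kinase that holds Cdk1 and Cdk2 back when replication stalls, and it read 9.23, 9.53 and 9.45 in clones 2, 3 and 4 of the control group and 8.72, 9.01 and 8.41 in clones 4, 8 and 9 of the shECAD group. The groups did not overlap, and the shECAD level was 61.9% of control (95% confidence interval 46.6% to 82.2%), with a fold change of -0.69 ± 0.18 (SE) and a limma adjusted p of 0.0762. Chek1 was called in 3 alternatives: among brighter genes alone, with an intensity trend and a robust prior, and with array quality weights. Wee1, the gene of the kinase that inhibits Cdk1, and Cdc25b, the gene of a phosphatase that activates it, had fold changes of 0.064 ± 0.17 (SE) and -0.048 ± 0.16 (SE), near 0. Cdc25c, a second such phosphatase gene, read 7.08, 7.35 and 7.23 in the control clones and 6.91, 6.90 and 6.92 in the shECAD clones with no overlap (fold change -0.31 ± 0.15 (SE)).

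Of the Aurora and Polo kinases, Aurka and Aurkb lay lower with no overlap and Plk1 did not. Aurka, the kinase gene of the spindle poles, read 9.38, 9.50 and 9.46 in the control clones and 9.25, 9.31 and 9.06 in the shECAD clones (fold change -0.24 ± 0.15 (SE)). Aurkb, the kinase gene of the chromosome passenger complex, read 8.56, 8.58 and 8.54 in the control clones and 8.33, 7.96 and 8.44 in the shECAD clones, with control clones within 0.035 units of each other (fold change -0.31 ± 0.17 (SE), and -0.17 without shECAD clone 8). Plk1, the gene of Polo-like kinase 1, had a fold change of 0.059 ± 0.16 (SE) with a 95% confidence interval from -0.29 to 0.41. The difference between Plk1 and the Aurora kinase genes was not tested.

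In the spindle checkpoint, Bub1 and Bub1b were lower in every shECAD clone. Bub1, a kinase gene of the kinetochore, read 9.73, 9.89 and 9.82 in clones 2, 3 and 4 of the control group and 9.39, 9.43 and 9.16 in clones 4, 8 and 9 of the shECAD group (fold change -0.49 ± 0.15 (SE), limma adjusted p = 0.119). Bub1b, which encodes the checkpoint protein BubR1, read 9.46, 9.46 and 9.55 in the control clones and 9.24, 9.22 and 8.95 in the shECAD clones (fold change -0.35 ± 0.15 (SE)). Ttk, the gene of the kinase Mps1, and Mad2l1, the gene of Mad2, overlapped, with fold changes of -0.39 ± 0.24 (SE) and -0.18 ± 0.15 (SE). Without shECAD clone 9 these were -0.18 and -0.12, and Ttk was -0.19 without control clone 3. Bub3, the gene of the protein that brings Bub1 and BubR1 to kinetochores, had the highest fold change of the mitotic set, 0.090 ± 0.14 (SE), with a 95% confidence interval from -0.23 to 0.41.

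All 3 centromere genes lay lower with no overlap. Cenpa, the gene of the histone variant that marks centromeres, read 9.13, 9.32 and 9.17 in the control clones and 8.89, 8.74 and 8.81 in the shECAD clones (fold change -0.39 ± 0.15 (SE), limma adjusted p = 0.187). Cenpe, a kinesin gene that moves chromosomes to the spindle equator, read 7.77, 8.12 and 7.91 in the control clones and 7.60, 7.74 and 7.14 in the shECAD clones (fold change -0.44 ± 0.19 (SE), and -0.26 without shECAD clone 9). Cenpf, the gene of a large kinetochore protein, read 7.71, 8.00 and 7.86 in the control clones and 7.15, 7.67 and 7.49 in the shECAD clones (fold change -0.42 ± 0.18 (SE), and -0.28 without shECAD clone 4). In the last gene shECAD clone 4 was the lowest, and in Cenpe shECAD clone 9.

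Kinesins and spindle genes gave values close to each other, from -0.45 to -0.26. Kif23, the motor gene of the central spindle, read 8.35, 8.40 and 8.59 in the control clones and 8.02, 8.19 and 7.79 in the shECAD clones (fold change -0.45 ± 0.16 (SE), limma adjusted p = 0.178). Kif20a, which acts in cytokinesis, and Kif11, which separates the spindle poles, also lay lower with no overlap. Kif20a read 9.02, 9.11 and 8.83 in the control clones and 8.53, 8.82 and 8.59 in the shECAD clones (fold change -0.34 ± 0.16 (SE)). Kif11 read 9.10, 9.32 and 9.24 in the control clones and 8.97, 9.01 and 8.90 in the shECAD clones (fold change -0.26 ± 0.15 (SE)). Tpx2, the gene of the activator of Aurora A, overlapped at 1 clone, with shECAD clone 8 at 9.01 and control clone 2 at 8.94 (fold change -0.39 ± 0.18 (SE)).

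The genes of mitotic exit and the marker genes of proliferation completed the set. Ube2c, the ubiquitin-conjugating enzyme gene of the anaphase-promoting complex, read 7.66, 7.60 and 7.47 in the control clones and 7.36, 7.37 and 6.98 in the shECAD clones (fold change -0.34 ± 0.16 (SE), and -0.21 without shECAD clone 9), whereas Cdc20, the activator of that complex, overlapped (fold change -0.12 ± 0.15 (SE)). Mki67, which encodes the proliferation antigen Ki-67, read 8.46, 8.39 and 8.36 in the control clones and 7.56, 8.21 and 8.15 in the shECAD clones. Its control clones lay within 0.10 units, and the fold change of -0.43 ± 0.19 (SE) (limma adjusted p = 0.265) became -0.23 without shECAD clone 4, its lowest clone. Foxm1, the transcription factor gene that switches on mitotic genes, read 6.63, 6.38 and 6.36 in the control clones and 6.16, 6.15 and 6.23 in the shECAD clones (fold change -0.28 ± 0.15 (SE)). Birc5, which encodes survivin, overlapped between the groups (fold change -0.23 ± 0.16 (SE), and -0.12 without shECAD clone 9).

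A CHR was found in 15 of 22 mitotic genes (68.2%) and in 3 of 11 G1 genes (27.3%), against 20.2% of all genes in the table. All 15 also held a CCAAT box, and 7.97% of all genes held both elements. In 14 of the 22 (63.6%) a CHR began within 50 bases of the start site, against 5.72% of all genes; this distance was chosen after the positions were seen. Of the measured members in the table, a CHR was found in 10 of the 19 that lay lower with no overlap (52.6%) and in 8 of the 13 that overlapped (61.5%). The sequences of Ccnf, Kif23 and Cenpf are shown as mitotic members that lay lower with no overlap and hold a CHR close to the start site. Plk1 is shown as one that holds it and did not lie lower, and Chek1 as the lowest of the mitotic set, which holds an E2F form and no CHR. The stretches are chr17:24251360-24251559 (minus strand), chr9:61946750-61946949 (minus strand), chr1:189688037-189688236 (minus strand), chr7:122159285-122159484 (plus strand) and chr9:36726609-36726808 (minus strand), with the same build, span and source as above, and capitals mark all 3 kinds of element.
Ccnf promoter: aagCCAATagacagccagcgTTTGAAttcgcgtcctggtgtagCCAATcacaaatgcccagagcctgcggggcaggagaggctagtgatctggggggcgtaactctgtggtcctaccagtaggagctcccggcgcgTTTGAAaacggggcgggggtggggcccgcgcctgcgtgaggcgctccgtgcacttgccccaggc
Kif23 promoter: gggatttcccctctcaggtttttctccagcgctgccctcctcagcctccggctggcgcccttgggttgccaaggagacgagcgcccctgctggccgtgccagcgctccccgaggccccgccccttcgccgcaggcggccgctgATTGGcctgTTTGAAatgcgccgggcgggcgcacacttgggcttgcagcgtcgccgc
Cenpf promoter: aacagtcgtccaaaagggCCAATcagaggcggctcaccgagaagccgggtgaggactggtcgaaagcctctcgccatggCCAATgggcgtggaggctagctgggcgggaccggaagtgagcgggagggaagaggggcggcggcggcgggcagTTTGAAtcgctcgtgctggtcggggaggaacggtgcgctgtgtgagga
Plk1 promoter: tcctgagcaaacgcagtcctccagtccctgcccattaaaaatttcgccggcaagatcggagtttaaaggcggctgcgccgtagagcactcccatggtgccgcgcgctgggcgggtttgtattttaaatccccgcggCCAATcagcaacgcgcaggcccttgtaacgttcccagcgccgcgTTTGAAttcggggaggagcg
Chek1 promoter: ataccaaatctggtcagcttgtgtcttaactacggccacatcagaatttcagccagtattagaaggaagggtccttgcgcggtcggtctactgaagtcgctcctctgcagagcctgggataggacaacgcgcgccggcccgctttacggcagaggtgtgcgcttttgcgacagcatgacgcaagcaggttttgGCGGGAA
Ccnf held a CHR at -14 and a second one at -130, Kif23 and Cenpf one at 2, and Plk1 one at 30. CCAAT boxes lay upstream of the CHR nearest the start site in all 4. Chek1 held 1 E2F form at 43, on the reverse strand.

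**Figure D5:**
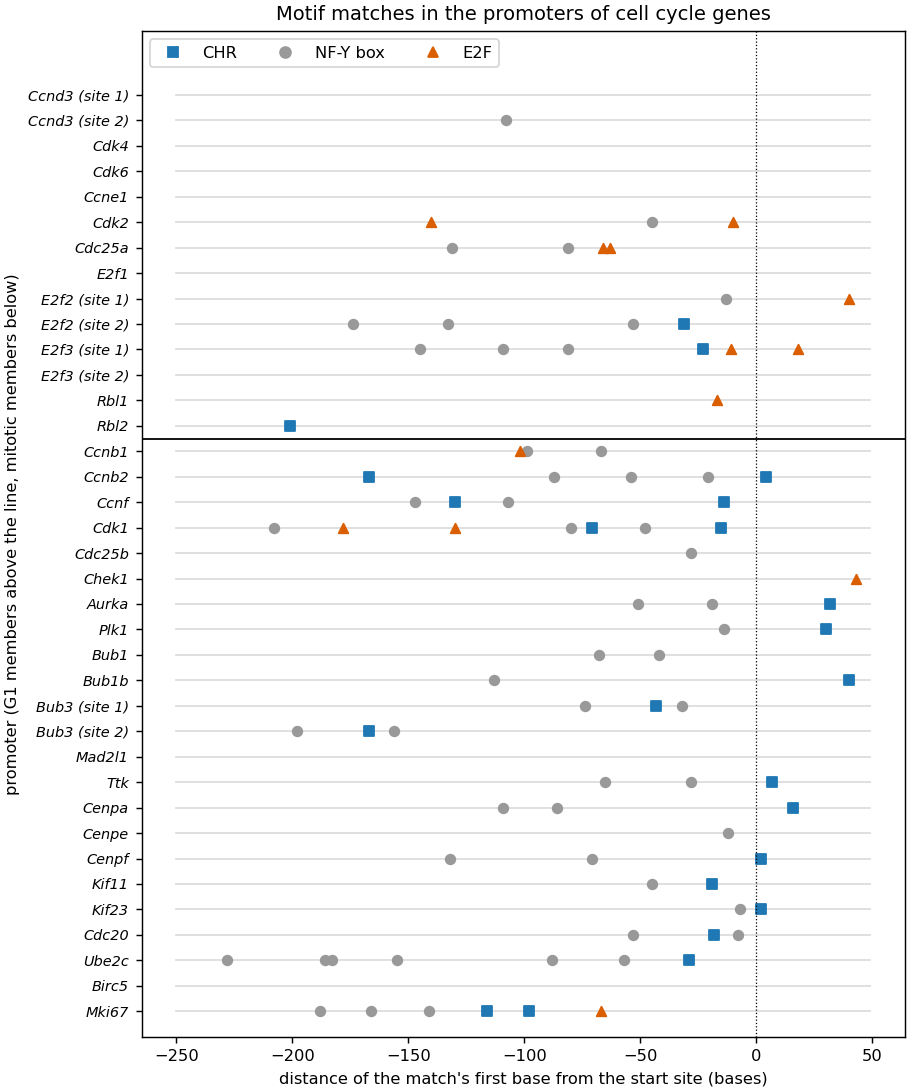
Positions of CHR (squares), CCAAT or NF-Y boxes (circles) and E2F forms (triangles) in 37 promoters of 33 listed genes, as the distance in bases of the match's first base from the start site. CHR squares gather near the start site in the mitotic genes, where 14 of 22 genes have one within 50 bases.

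Other genes of the cell cycle, from lists drawn up beside the members, leaned the same way. Of 31 measured genes of replication licensing and S phase, 3 fell and 0 rose, all 31 fold changes were below 0 with a median of -0.34, and 20 lay lower with no overlap. Over all genes 1.23% were called lower and 1.90% higher, 46.3% had a fold change below 0 and 12.5% lay lower with no overlap. Among brighter genes 61.1% were below 0 and 21.5% lay lower with no overlap, and all these shares belong beside this list and the next ones. The 3 were Uhrf1, which guides maintenance of DNA methylation at replication (fold change -0.85 ± 0.15 (SE), limma adjusted p = 0.0201), Pold1, the catalytic subunit gene of DNA polymerase delta (-0.82 ± 0.14 (SE), adjusted p = 0.0169), and the replication initiation gene Mcm10 (-0.75 ± 0.18 (SE), adjusted p = 0.0497). Uhrf1 read 9.25, 9.05 and 9.29 in the control clones and 8.23, 8.32 and 8.47 in the shECAD clones. Pold1 read 7.89, 7.89 and 7.89 in the control clones and 7.06, 7.03 and 7.10 in the shECAD clones. Neither gene overlapped between the groups, and in Pold1 the clones of each group lay close together. Leaving out control clone 4, or shECAD clone 4 or 8, left 0 genes of this list called. Mcm10 was also not called after quantile normalization (0.0596) or without any 1 of the other clones.

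Of 36 other kinetochore, spindle and passenger genes, 2 fell and 0 rose, and all 36 fold changes were below 0 (median -0.36, 17 lower with no overlap). After quantile normalization 33 were below 0 and without shECAD clone 9 32 were, each time with a median of -0.26. Kif14, a kinesin gene of cytokinesis, had group means of 7.22 ± 0.21 in the control clones and 6.05 ± 0.14 (SD, n = 3) in the shECAD clones, with no overlap (fold change -1.17 ± 0.17 (SE), limma adjusted p = 0.0101). The mean of its probesets gave -0.58 (limma adjusted p = 0.0532). Kntc1, a checkpoint gene of the kinetochore, read 8.06, 8.19 and 8.24 in the control clones and 7.49, 7.49 and 7.14 in the shECAD clones. Its fold change was -0.79 ± 0.16 (SE) (limma adjusted p = 0.0308). With 1 clone left out it kept its call only without control clone 2, and it kept the call in the alternatives that used all clones.

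Among 19 genes of the DNA damage checkpoint, which Chek1 serves, 4 fell and 0 rose, with a median of -0.44 (-0.29 without shECAD clone 9) and 10 lower with no overlap. Brca2, a gene of repair by homologous recombination, read 7.52, 7.52 and 7.64 in the control clones and 6.37, 6.77 and 6.38 in the shECAD clones (fold change -1.05 ± 0.16 (SE), limma adjusted p = 0.0123). Brca1 had -0.88 ± 0.17 (SE), the damage mediator Mdc1 -0.73 ± 0.15 (SE) and the clamp gene Hus1 -0.69 ± 0.15 (SE), with adjusted p-values of 0.0256, 0.0321 and 0.0436. Without control clone 4 none of the 4 was called, with adjusted p-values from 0.0522 to 0.162, and without any 1 shECAD clone or control clone 3, Brca2 alone was called. Hus1 was also not called without control clone 2, and so lost its call without each of the 6 clones.

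Of 16 other cyclins and kinases, Cdk14, the kinase gene that acts with cyclin Y in Wnt signalling, rose, from a mean of 4.78 ± 0.23 in the control clones to 5.69 ± 0.068 (SD, n = 3) in the shECAD clones (fold change 0.91 ± 0.16 (SE), limma adjusted p = 0.0205) and 0 fell. It was called without control clone 2 and lost the call without each of the other 5, with adjusted p-values up to 0.0933. Limma called 0 of 30 genes of the anaphase-promoting complex, cohesin and condensin (4 at an unadjusted p below 0.05, median -0.26) and 0 of 14 other E2F, DP and DREAM genes (1 at an unadjusted p below 0.05, median -0.14). After quantile normalization these medians were -0.15 and -0.035, and after median centring the second was -0.22. The fold changes farthest from 0 were -0.51 for separase (Espl1), 0.50 for Cdc26 and -0.49 for the condensin gene Ncapg2 in the first list. In the second they were -0.53 for Lin9, -0.39 for Mybl2 and -0.34 for Tfdp2.

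Limma called 0 of 6 measured CDK inhibitors (2 at an unadjusted p below 0.05). Of the 6 fold changes 1 was below 0, and 3 were after median centring, against 46.3% and 59.2% of all genes. Cdkn1a was not analysed here. Cdkn2a, the gene of p16 and p19Arf, read 5.86, 5.57 and 5.55 in the control clones and 6.33, 6.35 and 6.09 in the shECAD clones with no overlap (fold change 0.60 ± 0.16 (SE), limma adjusted p = 0.0785). Cdkn2b, the gene of p15, and Cdkn1c, the gene of p57, had fold changes of 0.55 ± 0.23 (SE) and 0.44 ± 0.22 (SE). Both groups overlapped in these last genes, and Cdkn1b, the gene of p27, had a value near 0 (0.025 ± 0.19 (SE)).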

How the data were processed

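Total RNA of the 6 lines was labelled as biotinylated cDNA from 100 ng and read on Affymetrix whole-transcript arrays, per the labels' protocols. The deposited table holds log2 expression values of 28853 probesets, and RMA and Partek are the tools named in the submitters' processing notes. Their versions and settings, like the genome build, were not given in the sources used here. Array medians were 5.11 to 5.30, and the values were used as deposited, with no filter on dim probesets. Of the probesets, 21789 have 1 gene symbol in the platform annotation, 1621 several and 5443 none here; 21698 matched a RefSeq gene table (GRCm38.p6, for names only; promoters came from RefSeq's table of the same build), and probesets with several genes were left out. The brightest stood for each of 999 genes with several.

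The comparison used lmFit and eBayes of limma 3.58.1 with the default prior and no covariate, in R 4.3.3, and single genes also with an exact permutation test. The fit was tested on simulated data. The members, their roles, the gene lists and the motifs were chosen with earlier results of these data known. The text names every measured member. It gives clone values for members that were called, did not overlap or had the largest change in their role, with the fold changes of up to 5 called genes of each other list, or else the 3 largest changes; clone values are given there for some. The counts of members that do not overlap, and the list genes and Cdh1, were recomputed under the alternatives after seeing the data. Alternatives were median centring, quantile normalization, brighter genes alone, a gene's probesets averaged, a robust prior with an intensity trend, array weights, an adjusted p of 0.1 and leaving out each clone. Figures were drawn with matplotlib 3.10.9.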

Additional observations from a re-analysis of the deposited data

How the results depend on the processing

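Of the 43 measured members, 36 kept the sign of their fold change under every alternative run. The count of members called lower, 1 as reported, was 2 after median centring, 0 after quantile normalization, 3 among brighter genes alone, 4 with an intensity trend and a robust prior, 3 with array quality weights and 3 at an adjusted p of 0.1. Members called in either direction, 2 as reported, were 1 after quantile normalization, 4 among brighter genes, 5 with the trend, 4 with array weights and 4 at an adjusted p of 0.1. The smaller table of brighter genes has fewer genes to adjust over, and for the other settings the cause was not tested. With 1 clone left out the members called higher ranged from 0 to 2, those called lower were 0 in each case, and those called in either direction ranged from 0 to 2. Genes called over the whole table ranged from 146, in the absence of control clone 4, to 543, in that of control clone 2, with 271 without control clone 3 and 231, 156 and 290 without shECAD clones 4, 8 and 9, and were 1067 with array weights and 1278 at an adjusted p of 0.1. The median of the mitotic members, -0.33, was -0.41 after median centring and -0.22 after quantile normalization, and ranged from -0.34 to -0.26 with 1 clone left out. That of the G1 members, -0.027, ranged from -0.12 to 0.036 with 1 clone left out and was 0.026 with array weights, so that its sign is not settled. The members that lay lower with no overlap numbered 17 to 26, an alternative chosen after seeing the data. The share of all genes moved as well, from 11.6% after quantile normalization to 21.5% among brighter genes. With 1 clone left out the members numbered 23 to 26, against 15.6% to 19.0% of all genes, where the full set of clones gave 23 and 12.5%.

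The other 7 members lay near 0 and changed sign. After median centring E2f2 was -0.014, Rb1 -0.0051, Wee1 -0.024 and Plk1 -0.028. After quantile normalization Ccnd3 was 0.047 and E2f2 -0.017. With array weights Ccnd3 was 0.026, Cdc25b 0.0055 and Plk1 -0.032. With 1 clone left out Ccnd3 ranged from -0.14 to 0.14, Ccne2 from -0.14 to 0.34, Rb1 from -0.16 to 0.42, Cdc25b from -0.11 to 0.038, Wee1 from -0.081 to 0.17 and Plk1 from -0.0044 to 0.16. No paired analysis was possible because the groups share only 1 clone number, which names separate lines.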
